A study of Mus musculus with 4 samples.

Results

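CD8 T cells that carried transcripts of both Pdcd1 (PD-1) and Havcr2 (TIM-3) were examined in tumors of MC38, a colon carcinoma line grown in mice, after sorting of live CD45+ cells. The cells were chosen by their measured Pdcd1, Havcr2 and lineage transcripts. Each deposited count is a unique molecular identifier (UMI), that is, 1 captured probe molecule, measured for 19059 genes. A PD-1+TIM-3+ cell was a cell with at least 500 detected genes, at most 10% mitochondrial UMIs, at least 3 UMIs of Cd3d, Cd3e and Cd3g together, under 0.2% of its UMIs on C1qa, C1qb, C1qc and Csf1r, at least 2 UMIs of Cd8a and Cd8b1, no UMI of Cd4 or Foxp3, and at least 1 UMI each of Pdcd1 and Havcr2. These rules kept 346 cells of 713 CD8 T cells, 1752 T cells and 28290 deposited cells. The other 367 CD8 T cells, which lacked a UMI of Pdcd1, of Havcr2 or of both, are the comparison class.

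All mice were C57BL/6 hosts with a humanized CTLA-4 gene (B-hCTLA-4), bearing MC38 tumors, and the labels state 3 treatments from a tumor size near 100 mm3, with 11 mice pooled into 1 library per group on day 8. Isotype control mice received human IgG1 at 10 mg/kg. Combination mice received the αCTLA-4 antibody ipilimumab at 10 mg/kg with the Fc-silent αFcγRII antibody AT130-2 (mIgG1-N297A) at 20 mg/kg. In each of the 2 single-antibody libraries the title names 1 antibody and the treatment field the other, so they are called here the CTLA-4-titled and the FcγRII-titled library, and which mice received which antibody was not settled. The article states other values for the number of tumors, the day and the doses. The labels place every library in the same batch. Sorted cells were fixed before capture, the mouse Ctla4 probe may not report the humanized gene fully, and with 1 pooled library per group a treatment and its library cannot be told apart. Intervals are 95% intervals that cover counting error only.

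PD-1 and TIM-3 are inhibitory receptors that T cells acquire after antigen stimulation. PD-1 appears early and on a wide range of stimulated CD8 T cells, including stem-like cells that depend on the transcription factor TCF-1 (Tcf7), whereas TIM-3 marks cells that have moved on towards a cytotoxic and terminally differentiated state. Cells bearing both are known in tumors for granzyme and perforin content, for further inhibitory receptors such as LAG-3, and for the loss of homing and egress receptors.

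The isotype control library held 42 PD-1+TIM-3+ cells, the CTLA-4-titled library 154, the FcγRII-titled library 28 and the combination 122. Values below keep this order of the libraries unless they are named. Summed UMIs of these cells were 520698, 1799642, 304580 and 2049028, and 1 cell of the combination, with 217027 UMIs, gave 10.6% of its sum. The median cell had 9460.5, 9661, 9025 and 12380 UMIs, against 4556, 4769, 5023 and 5638 in the other CD8 T cells. PD-1+TIM-3+ cells were therefore the more deeply captured class in each library, and deeper cells more readily show a UMI of any gene. No full cell barcode occurred in more than 1 library, and the 16-base droplet sequence of 10, 48, 9 and 32 PD-1+TIM-3+ cells also occurred in another library.

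T cell transcripts were plentiful, as the rule required. Cd3e, a subunit of the T cell receptor complex, was at 1682, 2111, 2305 and 1141 UMIs per 1000000 UMIs of the summed cells (CPM) and Cd8a at 1195, 1471, 1454 and 927 CPM, while macrophages had at most 0.6 CPM of Cd8a. The median cell had 9.5, 13, 12 and 12 UMIs of Pdcd1 and 3, 4, 4 and 5 of Havcr2. Macrophages of these tumors also carried Havcr2, at 169, 165, 173 and 157 CPM, but Pdcd1 at 2.78, 1.29, 1.55 and 6.34 CPM only. B cell markers summed to 3.84, 3.89, 9.85 and 5.37 CPM and mast cell or basophil markers to 0, 3.33, 0 and 0.976 CPM. The natural killer cell receptor Ncr1 stood at 0, 17.2, 32.8 and 11.2 CPM.

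Macrophage transcripts were not absent. The 14 markers of macrophages or monocytes took 1.13%, 0.232%, 0.371% and 0.873% of the UMIs of PD-1+TIM-3+ cells, and 0.44%, 0.166%, 0.335% and 0.744% in other CD8 T cells. In 10, 8, 2 and 33 PD-1+TIM-3+ cells they took at least 1%. The 10 of these markers outside the rule summed to 10426, 2022, 3385 and 7861 CPM, the most abundant being Ctss with 2631, 752, 942 and 2370 CPM, and none was at 0. Isotype control and the combination thus carried more macrophage RNA than the single-antibody libraries. Kept to its 32 cells with under 1% of these markers, isotype control had levels over 1.5 times those given below for Ifng (1603 CPM), Tnf (217 CPM), Ccl3 (1176 CPM), Ccl4 (2079 CPM), Mki67 (339.9 CPM), Rgs8 (223 CPM), Gzmc (349.9 CPM) and Gzmf (287 CPM). In the combination Gzmf was at 999 CPM in such cells.

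Of the PD-1+TIM-3+ cells, 7 sat at the edge of the rule with 1 UMI of each gene. Just outside it were 169 cells with Pdcd1 but no Havcr2 UMI, 45 with Havcr2 but no Pdcd1 UMI, and 153 with neither. Tcf7 was at 9.69 CPM in the PD-1+TIM-3+ cells past the edge, 95.2 CPM in Pdcd1-only cells, 54.5 CPM in Havcr2-only cells and 305 CPM in cells with neither. Lag3, encoding another inhibitory receptor, was at 988 CPM in Pdcd1-only cells, 826 CPM in PD-1+TIM-3+ cells past the edge and 121 CPM in Havcr2-only cells, whose macrophage transcript Lyz2 reached 3179 CPM against 443 CPM in Pdcd1-only cells. These levels pool libraries that contribute unequally to each group. The combination, for example, gave 120 of the 339 PD-1+TIM-3+ cells past the edge and 44 of the 169 Pdcd1-only cells.

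The first comparison asks how large a share of CD8 T cells was PD-1+TIM-3+ under each treatment. It was 39.25% in isotype control (exact binomial interval 29.95% to 49.16%), 50.49% in the CTLA-4-titled library (44.74% to 56.24%), 40.0% in the FcγRII-titled library (28.47% to 52.41%) and 52.81% in the combination (46.16% to 59.4%). The combination stood 1.35 times above isotype control (1.03 to 1.75), 1.05 times the CTLA-4-titled library (0.887 to 1.23) and 1.32 times the FcγRII-titled library (0.967 to 1.8). When each CD8 T cell was drawn down at random to 2779 UMIs, the shares became 23.46%, 35.37%, 29.63% and 31.43%, and the combination stood 1.34 times above isotype control with an interval (0.884 to 2.03) that included 1. Over all filtered cells PD-1+TIM-3+ cells made up 0.516%, 2.42%, 0.46% and 1.61%, so the larger gaps on that scale also carry the numbers of CD8 T cells. As drawn in the plot of shares by library, the intervals of the isotype control and combination libraries overlapped at either depth.

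**Figure D1:**
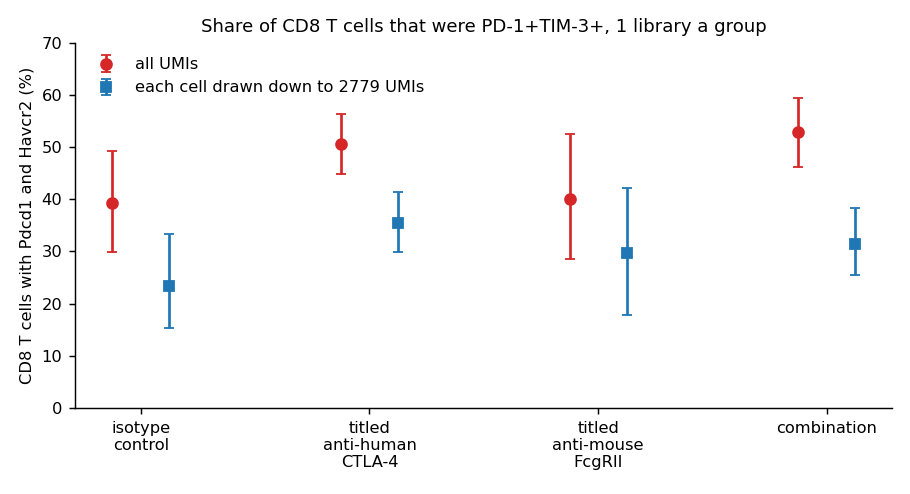
Share of CD8 T cells that were PD-1+TIM-3+ (y axis, percent) in each of the 4 libraries, at full depth (circles) and after each cell was drawn down to 2779 UMIs (squares), with 95% exact binomial bars. The full-depth shares lie between 39.25% and 52.81%, and the drawn-down shares between 23.46% and 35.37%.

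The second comparison asks which other transcripts set PD-1+TIM-3+ cells apart from the other CD8 T cells of the same tumors. UMIs were summed per class and library and tested with edgeR's quasi-likelihood test with library as a block. Of 8379 genes tested, 450 were higher (5.37% of genes tested) and 504 lower (6.02%) at an adjusted p under 0.05. PD-1+TIM-3+ cells had more transcripts of perforin, Lag3 and Tnfrsf9, and 15 of 36 cell cycle genes and 9 of 23 genes of glycolysis and hypoxia were higher. They had fewer transcripts of Tcf7, S1pr1 and Cxcr3, and 11 of 16 stem-like and naive genes, 7 of 18 trafficking genes and 12 of 23 type I interferon-stimulated genes were lower. Without the library block 58 genes were higher and 191 lower, and without the CTLA-4-titled library, which held the most cells, 161 and 242. With all cells drawn down to equal depth and the classes cut again on the drawn UMIs, the numbers were 158 and 148. The classes were cut on UMIs of genes in the same cells and differ in depth, so these p-values describe how evenly the difference recurred over 4 differently treated libraries.

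Prf1 (ENSMUSG00000037202, chromosome 10 from 61297833 to 61304680, GRCm38), encoding the pore-forming protein perforin, was at 645, 1217, 932 and 505 CPM in PD-1+TIM-3+ cells and 192, 219, 221 and 124 CPM in the others. The classes did not overlap, and the log2 fold change was 2.14 (SE 0.135, adjusted p = 1.55e-07 by edgeR). Rgs8, a regulator of G-protein signalling, had the largest log2 fold change among genes named by rule, 3.04 (SE 0.234, adjusted p = 1.74e-06 by edgeR), from 142, 194, 240 and 60.5 CPM against 16.4, 36.1, 14.97 and 3.55 CPM. Prdm1, encoding the effector differentiation regulator Blimp-1, was at 49.9, 131, 98.5 and 90.8 CPM against 19.2, 23.0, 22.5 and 49.7 CPM, a log2 fold change of 1.68 (SE 0.275, adjusted p = 0.00244 by edgeR). All 3 genes were higher in PD-1+TIM-3+ cells of each library, as the naming rule required.

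The other 12 genes with the highest folds had log2 fold changes between 1.57 and 2.58 and were, by the same rule, higher in all 4 libraries. They included Adgrg1, encoding the adhesion receptor GPR56 of cytotoxic lymphocytes (2.13, SE 0.453), Epas1, encoding the hypoxia-inducible factor HIF-2α (2.24, SE 0.344), Sema7a, a membrane semaphorin (1.85, SE 0.19), Zbtb32, a transcriptional repressor (1.95, SE 0.323), Nek2, a mitotic kinase (1.66, SE 0.292), and Il1r2, the decoy receptor for interleukin-1 (1.57, SE 0.222). Sv2c, Cdk14, Tff1, Tppp3, Myo10 and Nupr1 completed the group. Many of these were sparse: Epas1, for example, reached 51.1 CPM at most, in the CTLA-4-titled library. In the FcγRII-titled library 1 cell gave all Nupr1 and all Tppp3 UMIs of the PD-1+TIM-3+ cells.

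**Figure D2:**
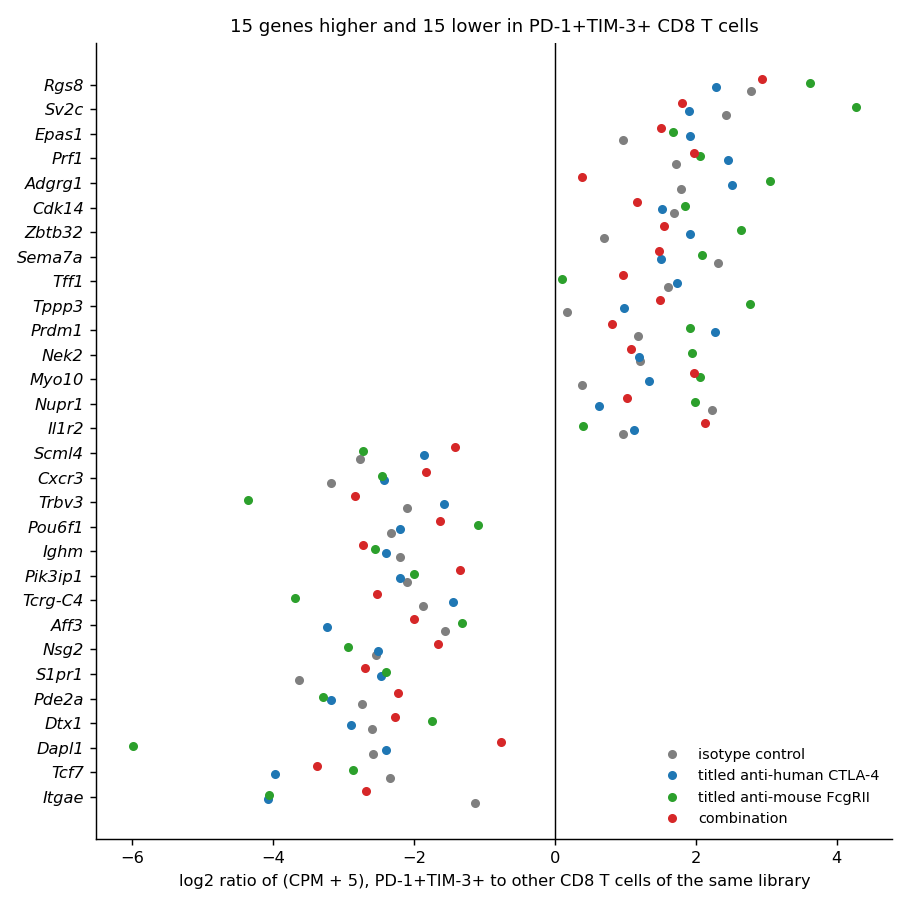
The log2 ratio of CPM + 5 between PD-1+TIM-3+ and other CD8 T cells of the same library (x axis) for the 15 genes with the highest and the 15 with the lowest fitted fold change (rows), 1 point per library. All points of the upper 15 genes lie right of 0 and all points of the lower 15 left of it, as the naming rule required, and the FcγRII-titled library, with 28 cells, lies farthest out for Sv2c and Dapl1.

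Genes of stem-like and naive T cells were lower in PD-1+TIM-3+ cells. Of 16 tested, 11 were lower and 5 did not pass, with a median log2 fold change of -1.85, against 0.01 over all genes tested. Tcf7 (ENSMUSG00000000782, chromosome 11 from 52252371 to 52283014) was at 36.5, 6.11, 23.0 and 4.88 CPM in PD-1+TIM-3+ cells and 206, 171, 198 and 98.2 CPM in the others. Its classes did not overlap, and its log2 fold change was -3.69 (SE 0.335, adjusted p = 0.000375 by edgeR). However, 1 cell gave 85.7% of the Tcf7 UMIs of PD-1+TIM-3+ cells in the FcγRII-titled library. Lef1, the partner factor of TCF-1, had a log2 fold change of -1.58, Slamf6, a surface receptor of stem-like CD8 T cells, -2.09, Bcl2, which protects from apoptosis, -1.36, and Il7r, the receptor chain for the survival cytokine interleukin-7, -0.77. Klf2 (log2 fold change -2.05, adjusted p = 0.0527 by edgeR) and Id3 (-3.18, adjusted p = 0.0864) did not pass the test. Among 14 regulators of memory and effector-memory cells, a list that shares Tcf7, Bach2 and Prdm1 with others, 5 were lower and 1 higher (median -0.43). They included Foxo1, a factor of quiescent and memory T cells, at -1.18 (adjusted p = 8.24e-05 by edgeR).

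Of 18 trafficking and residency genes tested, 7 were lower, 2 were higher and 9 did not pass (median -0.24). S1pr1, the receptor for sphingosine-1-phosphate that guides lymphocytes out of tissue, was at 11.5, 14.4, 16.4 and 9.76 CPM against 200, 103, 108 and 91.1 CPM (log2 fold change -3.13, SE 0.223, adjusted p = 6.02e-07 by edgeR). Cxcr3, the receptor for the interferon-induced chemokines CXCL9 and CXCL10, was at 30.7, 63.3, 49.2 and 69.3 CPM against 321, 364, 292 and 260 CPM (log2 fold change -2.41, SE 0.176, adjusted p = 4.08e-06 by edgeR). The classes did not overlap for either gene. Itgae, encoding the residency integrin CD103, had the lowest fold change among the named genes, -4.65 (SE 0.886, adjusted p = 0.0314 by edgeR), from 35.6, 98.4, 78.6 and 27.2 CPM in other CD8 T cells to 13.4, 1.11, 0 and 0 CPM, and its call was lost in 5 of the 10 alternatives that tested it. Its partner chain Itgb7 was at -1.46, Itgb1 at -0.81 and the early residency marker Cd69 at -1.22, whereas Cd44, an adhesion receptor of activated T cells, was 0.51 higher and Rgs1 0.59 higher. Cxcr6, a receptor of tissue T cells, was at 634, 1076, 1208 and 680 CPM against 403, 744, 539 and 784 CPM. It did not pass (log2 fold change 0.56, adjusted p = 0.141 by edgeR), and only in the combination was its summed level lower in PD-1+TIM-3+ cells. Without cells over 50000 UMIs that level was 777 CPM, close to the 784 CPM of the other class. At equal depth 83.28% of PD-1+TIM-3+ cells of the combination had a Cxcr6 UMI, against 71.65% of its other CD8 T cells.

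Besides these, the lowest fold changes belonged to Dapl1 (-3.61), Dtx1, encoding the Notch pathway ubiquitin ligase Deltex-1 (-3.53), Pde2a, a cyclic nucleotide phosphodiesterase (-3.22), Nsg2 (-3.07), Aff3 (-2.96), Pik3ip1, an inhibitor of PI3 kinase (-2.72), Pou6f1 (-2.55) and Scml4 (-2.39). The receptor genes Tcrg-C4 (-2.76), Trbv3 (-2.55) and Ighm (-2.57) were lower as well. Ighm, the constant region of IgM, was at 69.1, 41.7, 59.1 and 17.6 CPM against 337, 242, 371 and 144 CPM.

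Cytotoxic genes split. Of 17 tested, 5 were higher, 3 lower and 9 did not pass (median 0.53). Prf1, Nkg7 (0.53), Srgn (0.44) and the granzyme inhibitors Serpinb9 (1.08) and Serpinb6b (1.24) were higher. Gzma (-1.81, adjusted p = 0.0327 by edgeR), Gzmk (-0.52) and Ctsw (-0.51) were lower, and the call for Gzma was lost in 10 of 13 alternatives. Granzymes of the cluster on chromosome 14 were high in PD-1+TIM-3+ cells but uneven among them. Gzmb was at 1241, 2761, 1533 and 1716 CPM against 902, 548, 734 and 391 CPM (log2 fold change 1.56, adjusted p = 0.122 by edgeR). Gzmf was at 165, 1162, 1730 and 590 CPM against 165, 4.38, 0 and 2.37 CPM (adjusted p = 0.26 by edgeR), 1 cell giving 47.7%, 17.8%, 53.1% and 33.1% of its UMIs. A single cell of the 65 other CD8 T cells of isotype control gave all of their Gzmf UMIs, whereas 5 of the 42 PD-1+TIM-3+ cells there had one. Gzmb was higher in each of the 4 libraries and Gzmf clearly so outside isotype control, and neither gene passed the test across libraries.

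Gzmb, Gzmc, Gzmd and Gzmf are neighbours on the minus strand of chromosome 14, and their promoters are shown because levels in this cluster were uneven among PD-1+TIM-3+ cells. The 250 bases before each RefSeq start site on GRCm38.p6 are given 5′ to 3′, with capitals marking the AP-1 letters TGAGTCA (or TGACTCA on the other strand) and the cyclic AMP response element letters TGACGTCA, which read the same on both strands. They lie at chr14:56262335-56262584 for Gzmb, chr14:56234658-56234907 for Gzmc, chr14:56132594-56132843 for Gzmd and chr14:56211408-56211657 for Gzmf.
Gzmb: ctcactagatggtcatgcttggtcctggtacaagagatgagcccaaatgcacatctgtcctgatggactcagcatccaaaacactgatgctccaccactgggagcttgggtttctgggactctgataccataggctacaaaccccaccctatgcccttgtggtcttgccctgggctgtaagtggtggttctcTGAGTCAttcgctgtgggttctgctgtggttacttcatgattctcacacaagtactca
Gzmc: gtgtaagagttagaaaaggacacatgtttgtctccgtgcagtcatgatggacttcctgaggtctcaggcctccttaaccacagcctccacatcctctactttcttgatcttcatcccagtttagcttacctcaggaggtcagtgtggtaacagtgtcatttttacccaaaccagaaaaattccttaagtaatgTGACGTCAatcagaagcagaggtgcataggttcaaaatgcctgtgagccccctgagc
Gzmd: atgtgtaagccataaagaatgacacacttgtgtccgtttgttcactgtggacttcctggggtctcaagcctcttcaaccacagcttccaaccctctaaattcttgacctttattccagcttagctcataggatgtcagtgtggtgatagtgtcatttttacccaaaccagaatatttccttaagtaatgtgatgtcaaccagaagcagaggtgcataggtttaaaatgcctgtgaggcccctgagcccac
Gzmf: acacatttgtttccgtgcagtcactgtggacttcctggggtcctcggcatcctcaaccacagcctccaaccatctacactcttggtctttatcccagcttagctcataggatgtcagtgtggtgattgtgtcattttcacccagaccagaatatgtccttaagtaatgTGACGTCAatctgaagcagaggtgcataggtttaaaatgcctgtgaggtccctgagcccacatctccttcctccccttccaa
AP-1 letters occurred in the Gzmb window, beginning 58 bases before the start, and in 4.43% of 27025 promoters of the same length. Response element letters occurred in the Gzmc and Gzmf windows and in 1.62% of promoters, and neither set of letters occurred in the Gzmd window. The Gzmc and Gzmd windows were 80.5% identical after alignment, the Gzmd and Gzmf windows 74.5%, and the Gzmb and Gzmc windows 47.5%. The longest annotated Gzmd and Gzme transcripts were 90.0% identical and those of Gzmd and Gzmf 83.1%, so probes may not separate them fully and single values of Gzmd, Gzme and Gzmf are uncertain.

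Inhibitory receptors outside the rule, listed with Laptm5, a brake on T cell receptor levels, went both ways. Of 14 tested, 2 were higher and 2 lower, against 5.37% and 6.02% of all genes tested. The median log2 fold change was 0.00, and the list was not tested as a group. Lag3 was at 860, 986, 1231 and 618 CPM against 329, 594, 835 and 385 CPM (log2 fold change 0.87, SE 0.134, adjusted p = 0.000668 by edgeR) and was higher in each library. With the libraries pooled, however, other CD8 T cells with Pdcd1 alone were at 988 CPM, above the 826 CPM of PD-1+TIM-3+ cells past the edge. Those with neither gene were at 62.9 CPM. The combination, where Lag3 was lowest, gave 120 of these 339 PD-1+TIM-3+ cells but 44 of 169 Pdcd1-only cells, and this order was not examined per library. Cd244a, encoding the receptor 2B4, was at 82.6, 128, 122 and 61.0 CPM against 35.6, 47.0, 48.7 and 37.9 CPM (1.20, adjusted p = 0.000716 by edgeR). Btla (-1.99) and Cd101 (-1.07) were lower. Entpd1, encoding the ectonucleotidase CD39, was at 234, 247, 200 and 192 CPM against 129, 75.5, 112 and 187 CPM and did not pass (0.86, adjusted p = 0.156 by edgeR), and macrophages express it too. Ctla4 was at 74.9, 106, 108 and 73.2 CPM and did not pass (0.16, adjusted p = 0.569 by edgeR). Of 12 costimulatory receptors, 2 were higher, led by Tnfrsf9 (4-1BB), at 843, 1175, 1060 and 991 CPM against 239, 516, 329 and 446 CPM (1.48, SE 0.135, adjusted p = 6.58e-06 by edgeR), and Cd2, an adhesion receptor, was lower (-0.67).

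Of 17 exhaustion regulators, 6 were higher and 1 lower (median 0.45). Higher were Prdm1, Rgs16 (1.48), the orphan nuclear receptors Nr4a3 (1.13), Nr4a2 (0.95) and Nr4a1 (0.59), and Irf4 (0.69), a factor induced by T cell receptor signals. Ikzf2, encoding Helios, was lower (-0.76), a call lost in 6 of 13 alternatives. Tox, encoding the nuclear factor known for sustaining exhausted CD8 T cells, did not pass (0.45, adjusted p = 0.564 by edgeR). The list of early genes induced through the T cell receptor divided: of 22 tested, 5 were higher, among them Egr2 (1.16) and Egr3 (0.93), and 4 lower, among them Fosb (-0.75), Fos (-0.62) and Junb (-0.43), all components of AP-1.

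Of 36 cell cycle genes tested, 15 were higher in PD-1+TIM-3+ cells and 21 did not pass (median 0.68). Mki67, the proliferation marker, was at 207, 513, 542 and 162 CPM against 184, 309, 348 and 87.6 CPM (0.67, adjusted p = 0.00249 by edgeR). Those that passed included the mitotic genes Cdc20 (1.25), Bub1 (1.15) and Cenpe (1.14) and the cyclin gene Ccna2 (1.07), and the replication genes Mcm2 (0.49), Mcm3 (0.69) and Mcm5 (0.61) also passed, whereas Pcna (0.05) and Top2a (0.07) did not. Of 23 genes of glycolysis and hypoxia, 9 were higher and 14 did not pass (median 0.45, and -0.04 in the FcγRII-titled library alone). They included the glucose transporter Slc2a3 (0.73) and the enzymes Tpi1 (0.77), Pkm (0.49) and Ldha (0.43), and Slc2a3 was higher in all 4 libraries. The call for Ldha was lost in 5 of 13 alternatives. Per library, the glycolysis and hypoxia list had medians of 0.60, 0.55, -0.04 and 0.35. Macrophage markers had medians of 1.41, 0.59, 0.18 and 0.39, ranking the libraries in the same order. The part of macrophage RNA in this list was not tested.

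Of 23 type I interferon-stimulated genes, 12 were lower and 11 did not pass (median -0.66, and -0.13 in isotype control alone). Zbp1, a sensor of foreign nucleic acid, was at 257, 244, 236 and 330 CPM against 425, 509, 505 and 450 CPM (-0.77, adjusted p = 0.000908 by edgeR), and Rtp4 was at 80.7, 54.5, 23.0 and 102 CPM against 164, 160, 142 and 157 CPM (-1.16, adjusted p = 0.00495 by edgeR). Both were lower in each library. Ifit1 and Ifit3, induced early by interferon, were at -1.69 and -1.56 and did not pass. Of 28 genes of the interferon gamma response, 11 were lower, such as the GTPases Igtp (-0.94) and Gbp4 (-0.75), and 3 were higher: Ciita (1.38), Irf8 (0.88) and Ifngr2 (0.76). Ciita, the activator of MHC class II genes, was at 82.6, 25, 32.8 and 72.7 CPM in PD-1+TIM-3+ cells, the libraries with more macrophage RNA being the higher ones, and the part of that RNA was not tested.

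**Figure D3:**
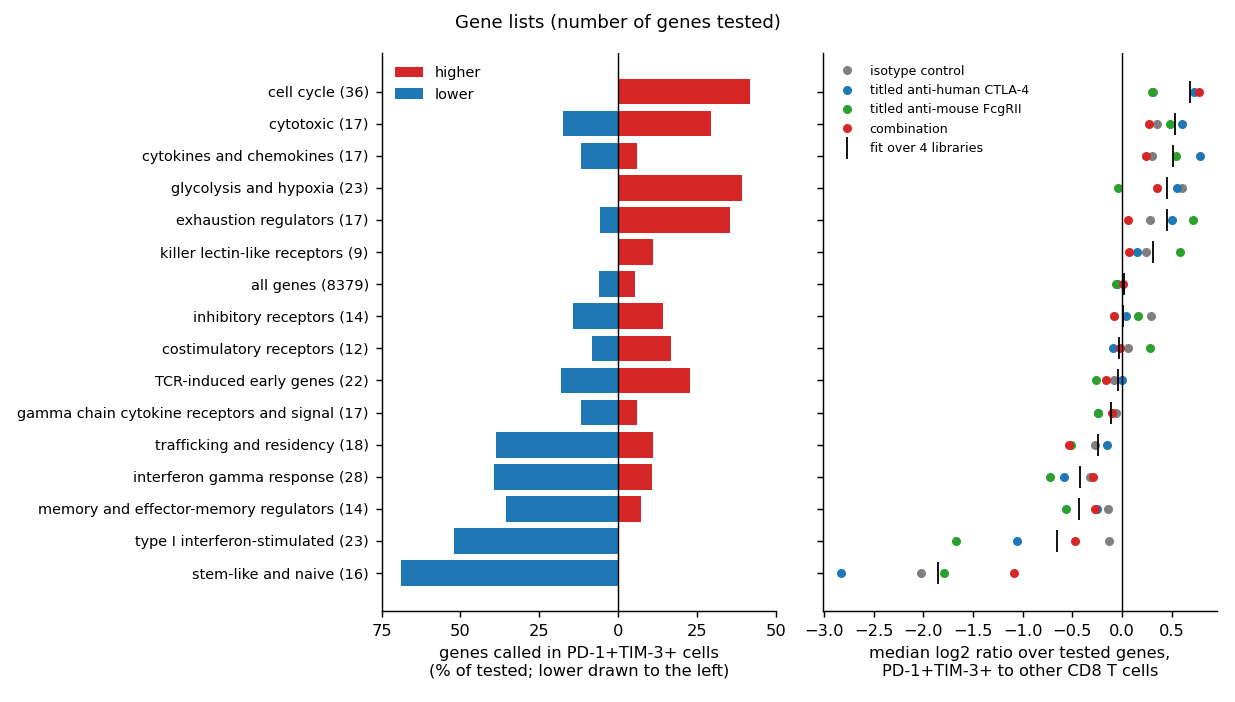
Left, percent of the tested genes of each list (number tested in brackets) called higher (red, to the right) or lower (blue, to the left) in PD-1+TIM-3+ cells. Right, the median log2 ratio of each list in each library (points) and in the fit over all libraries (bars), where stem-like and naive genes lie at -1.85 and cell cycle genes at 0.68, against 0.01 for all genes.

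Of 17 secreted factors, 1 was higher and 2 were lower, against 5.37% and 6.02% of all genes tested. Ifng was at 1035, 1850, 745 and 1224 CPM against 214, 312, 314 and 1045 CPM (1.61, adjusted p = 0.212 by edgeR). The chemokines Ccl3 (705, 1542, 440 and 1392 CPM against 30.1, 93.0, 37.4 and 567 CPM) and Ccl4 (1367, 2178, 1064 and 1717 CPM against 74.0, 290, 183 and 1623 CPM) were higher in each library without passing (adjusted p = 0.127 and 0.252 by edgeR). By summed UMIs, the ratio between the classes was smallest in the combination for all 3 genes, and its other CD8 T cells had the highest level of the 4 libraries. By share of cells at equal depth this order did not hold for Ifng and Ccl4. Ifng was found in 40.22% of other CD8 T cells of the combination and 49.03% of those of the FcγRII-titled library. For Ccl4 these shares were 20.26% and 27.84%, and for Ccl3 12.18% and 10.12%. Csf1, the macrophage growth factor, passed at 0.72 (adjusted p = 0.0101 by edgeR) and lost the call in 5 of 13 alternatives, and Ccl5 (-0.73) and Tnfsf8 (-1.75) were lower. Il2 was close to absent, with at most 0.556 CPM in PD-1+TIM-3+ cells of any library.

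Over all genes tested, 5.37% were higher and 6.02% lower, and the short lists of this paragraph were not tested as groups. Of 9 killer lectin-like receptors, Klrc1, encoding NKG2A, was higher (0.53) and 8 did not pass. Of 17 receptors and signal genes of the common gamma chain cytokines, Il2ra was higher (0.69) and Il7r and Jak1 lower. The call was lost for Il2ra in 6 and for Jak1 in 7 of 13 alternatives. Among 13 general T cell genes 3 were lower, of which Bcl11b (-0.85) had the largest change. Of the 10 macrophage markers tested, 4 were higher, including Lyz2 (0.45, adjusted p = 0.0235 by edgeR) and Cd14 (0.93), with a list median of 0.69, and 6 did not pass. In cells with no UMI of the 4 macrophage genes of the rule, the log2 fold change of Lyz2 was -0.40. Of the NK or ILC1 markers, Fcer1g (0.74) and Tyrobp (0.66), signalling adaptors that macrophages also express, were higher among 5 tested. Of 5 regulatory T cell markers, Ikzf4 (1.06) and Il2ra were higher and Ikzf2 lower. The single dendritic cell marker tested, Ccr7, and the single tumor or stroma marker tested, Pecam1, were lower (-2.09 and -1.09). With only cells under 1% of the 14 macrophage markers kept, 472 genes were higher and 546 lower, and of the 954 genes called before, 773 were called again in the same direction. Fewer were called again under other settings: 413 with DESeq2, 248 without the library block, 221 of 592 tested with no macrophage UMI and 209 of 684 tested when drawn down.

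The third comparison asks how PD-1+TIM-3+ cells of the combination differed from those of isotype control, and of the single antibodies. There being 1 library a group, no test was made, and genes with at least 50 CPM in the higher library were counted at a ratio of at least 2. Of 5453 genes at that level, 153 were at least 2-fold higher (2.81%) and 51 at least 2-fold lower (0.935%) in combination cells than in their isotype control counterparts. With only cells under 1% of macrophage markers kept these numbers were 379 and 116. With cells drawn down to equal depth and the classes cut again they were 394 and 778, and with no macrophage UMI 374 and 790. Lower genes outnumbered higher ones there, but isotype control then kept only about 22 and 7 PD-1+TIM-3+ cells. Those counts rest on small sums, and the direction was not tested. Genes at least 2-fold apart from each of the 3 other libraries and spread over enough cells numbered 48 higher and 2 lower.

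Of the 17 exhaustion regulators with at least 50 CPM, Nr4a1 and Nr4a3 were at least 2-fold higher in the combination and Tox at least 2-fold lower, and Tox is singled out after its values were seen. Nr4a1 was at 148, 384, 131 and 469 CPM, the combination being at 3.17 times isotype control (2.52 to 4.06), and Nr4a3 at 267, 523, 174 and 556 CPM, at 2.08 times (1.75 to 2.5). For both genes the CTLA-4-titled library lay closer to the combination than to isotype control. The share of cells with an Nr4a1 UMI at equal depth was 1.68 times isotype control in the combination, with an interval (0.854 to 3.3) that included 1. Tox was at 200 CPM in isotype control (Poisson interval 163 to 242), 172 CPM in the CTLA-4-titled library (153 to 192), 177 CPM in the FcγRII-titled library (133 to 231) and 23.9 CPM in the combination (17.7 to 31.6). Combination cells thus had 0.12 times the isotype control level (0.0835 to 0.17), 0.139 times that of the CTLA-4-titled library (0.101 to 0.189) and 0.135 times that of the FcγRII-titled library (0.0897 to 0.202). At equal depth 39.3%, 30.0%, 34.7% and 7.60% of PD-1+TIM-3+ cells had a Tox UMI, with 0.0956% in macrophages. Among cells under 1% of macrophage markers the levels were 247, 176, 200 and 30.5 CPM. In other CD8 T cells Tox was at 126, 101, 82.4 and 53.3 CPM, and in CD4 T cells without Foxp3 at 54.0, 57.3, 36.3 and 25.3 CPM, the combination again being lowest. In CD4 T cells with Foxp3 it was at 86.9, 152, 29.8 and 31.5 CPM and over all filtered cells at 5.16 CPM in the FcγRII-titled library, 5.19 CPM in the combination and at least 10.4 CPM in the 2 others, so the FcγRII-titled library was about level with the combination there. Tox missed the naming rule because 1 cell gave 25.9% of its UMIs in PD-1+TIM-3+ cells of the FcγRII-titled library.

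The 2 genes that met the rule for lower genes were St14, encoding the membrane protease matriptase, and Cst7, encoding the cathepsin inhibitor cystatin F of cytotoxic cells. Cst7 was at 480, 523, 548 and 239 CPM, the combination being at 0.497 times isotype control (0.426 to 0.581). St14 was at 84.5, 88.9, 91.9 and 32.7 CPM, at 0.387 times isotype control (0.261 to 0.58). Both single-antibody libraries lay near isotype control for these genes, and in cells under 1% of macrophage markers Cst7 was at 613, 545, 588 and 315 CPM. Rgs8 and Ikzf2 were lowest in the combination too, Rgs8 at 0.426 times isotype control (0.317 to 0.576) and Ikzf2 at 0.543 times (0.408 to 0.729). With no macrophage UMI these ratios were 0.226 and 0.222, and that of Tox 0.0625, from only 7 isotype control and 20 combination cells. In cells under 1% of macrophage markers they were 0.325 for Rgs8, 0.633 for Ikzf2 and 0.124 for Tox.

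The 10 genes with the highest ratios were Nos2, Cxcl3, Il1a, Mgst1, Slpi, Fpr1, Cxcl2, Hcar2, Fpr2 and Met, most of which are known from macrophages and neutrophils. Nos2, encoding inducible nitric oxide synthase, was at 48.0, 78.3, 9.85 and 699 CPM, the combination being at 14.6 times isotype control (9.83 to 22.6), where 1 cell gave 68% of its UMIs. Cxcl2, a neutrophil-attracting chemokine, was at 48.0, 15, 0 and 327 CPM, 1 cell giving 92% of its isotype control UMIs, and Fpr2, a formyl peptide receptor, at 53.8, 31.1, 6.57 and 321 CPM. Cxcl3 had 0 UMIs in PD-1+TIM-3+ cells of the other 3 libraries and 69.3 CPM in the combination, at least 12-fold higher than isotype control against a floor of 3 UMIs in that library. The same genes were high throughout the combination library: Nos2 was at 773 CPM over all its filtered cells, 604 CPM in macrophages, 396 CPM in CD4 T cells without Foxp3 and 890 CPM in other CD8 T cells. Over all filtered cells of the first 3 libraries Nos2 was at 83.6, 204 and 70.1 CPM. Macrophage markers summed to 7861 CPM in combination cells against 10426 CPM in isotype control cells. Neutrophil markers summed to 86.4, 36.1, 13.1 and 299.7 CPM (918, 104, 22.5 and 486 CPM in other CD8 T cells), with Csf3r at 48.0, 10.6, 6.57 and 94.2 CPM and Cxcr2 at 0, 0, 0 and 14.6 CPM. In cells under 1% of macrophage markers Nos2 was at 3.33, 11.0, 11.5 and 565 CPM, beside Lyz2 at 343, 195, 165 and 892 CPM and Apoe, encoding the lipid carrier of macrophages, at 303, 154, 84.5 and 843 CPM. The part of RNA from other cells in these values was not tested.

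Effector transcripts gave a mixed order over libraries. Prf1 in the combination was at 0.782 times isotype control (0.691 to 0.887), 0.414 times the CTLA-4-titled library (0.385 to 0.447) and 0.541 times the FcγRII-titled library (0.474 to 0.619). Gzmb was 1.38 times isotype control (1.27 to 1.51) but 0.622 times the CTLA-4-titled library (0.595 to 0.649), and Gzmc was 4.62 times isotype control (3.81 to 5.66). Gzmb was at 1.06 times isotype control in cells under 1% of macrophage markers and 4.83 times in cells with no UMI of the 4 macrophage genes, of which isotype control had 7. Gzmc was at 2.56 times as a mean over cells, and its share of cells with a UMI at equal depth was 1.11 times isotype control (0.51 to 2.4). The CTLA-4-titled library had the highest levels of Prf1, Gzmb and Ifng, and isotype control the lowest of Gzmb, Gzmc, Gzmd, Gzme and Gzmf, although for Gzmb the FcγRII-titled library was lowest in cells under 1% of macrophage markers (1759 CPM against 1836 CPM). The ratio of Ifng, 1.18 (1.08 to 1.3), turned to 0.864 in cells under 1% of macrophage markers and to 0.917 as a mean over cells. For Tnf it was 2.98 (2.35 to 3.83), from 142, 412, 184 and 424 CPM, but 1.81 in cells under 1% of macrophage markers, and the share of cells with a Tnf UMI at equal depth was 1.04 times isotype control (0.632 to 1.71). Mki67 and Lag3 were lowest in the combination. Mki67 was at 0.781 times isotype control (0.627 to 0.98) and 0.316 times the CTLA-4-titled library (0.278 to 0.358). Its ratio to isotype control was 0.939 as a mean over cells, 0.605 in cells under 1% of macrophage markers and 0.408 with no macrophage UMI. Lag3 was at 0.719 times isotype control (0.645 to 0.802) and 0.502 times the FcγRII-titled library (0.447 to 0.565).

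**Figure D4:**
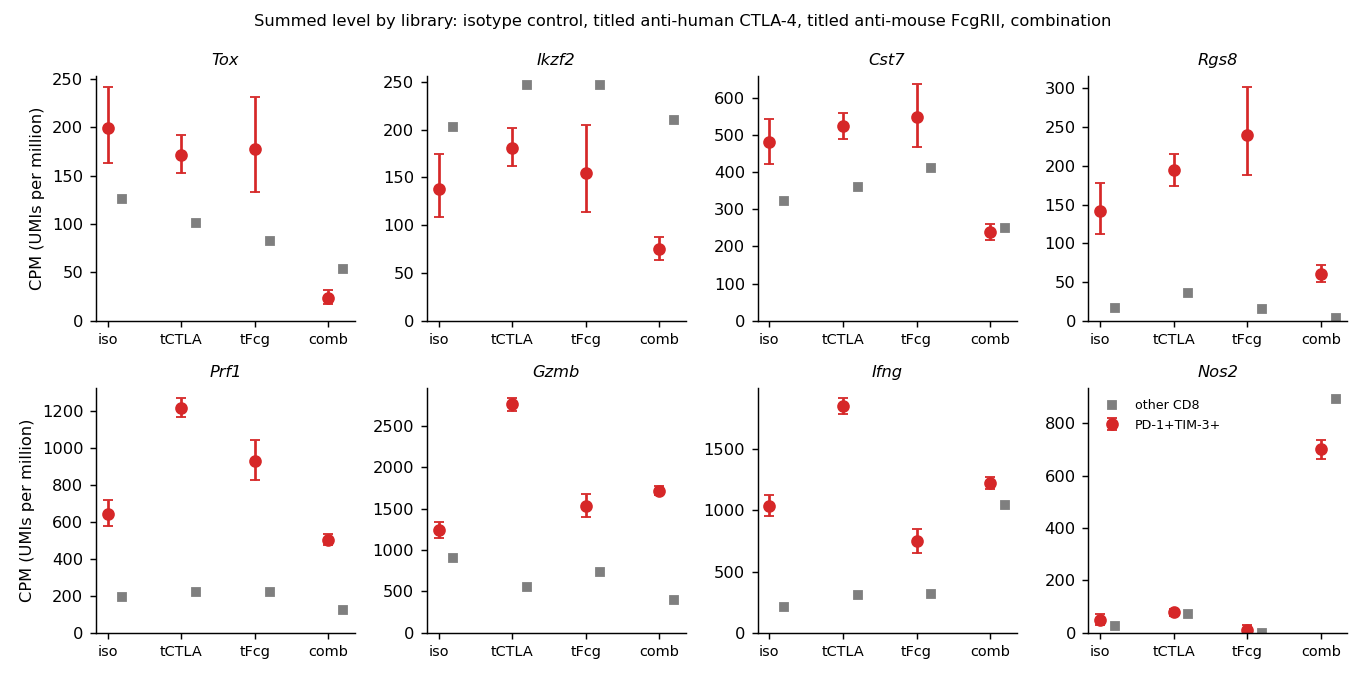
Level in CPM (y axes, from 0) of 8 genes in PD-1+TIM-3+ cells (circles, 95% Poisson bars) and other CD8 T cells (squares) of the isotype control (iso), CTLA-4-titled (tCTLA), FcγRII-titled (tFcg) and combination (comb) libraries. Tox lies between 172 and 200 CPM in 3 libraries and at 23.9 CPM in the combination, and Nos2 is at 699 CPM there against at most 78.3 CPM elsewhere.

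Shares of cells with a UMI, taken at 2779 UMIs per cell, left out 1, 6, 1 and 1 shallower PD-1+TIM-3+ cells. Mki67 was found in 19.2% (8.82% to 34.9%), 36.7% (28.7% to 44.8%), 29.8% (13.8% to 50.2%) and 19.4% (12.4% to 27.1%) of them, and in 13.2%, 16%, 20.3% and 10.6% of other CD8 T cells. At full depth the Mki67 shares were 31.0%, 55.8%, 39.3% and 39.3%. Cells with both Ifng and Tnf made up 24.1%, 25.9%, 30.5% and 24.3%, combination cells being at 1.01 times isotype control (0.538 to 1.89). Macrophages, of higher median depth before drawing (22316 UMIs), had both in 0.148% of cells, a Tnf UMI with or without Ifng in 20.4% and a Mki67 UMI in 22.6%. The Mki67 interval of the CTLA-4-titled library lay above that macrophage share. In the other libraries the Mki67 share does not stand clear of a cell type that also divides.

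Lag3 was detected in 77.2%, 82.0%, 92.0% and 64.6% of PD-1+TIM-3+ cells at that depth and in 0.999% of macrophages. Prf1 was detected in 58.2%, 77.7%, 78.2% and 55.1%, and at least 1 of Gzmc, Gzmd, Gzme and Gzmf in 23.9%, 33.5%, 35.1% and 25.7%, against 5.24%, 2.89%, 5.91% and 6.57% of other CD8 T cells. Tcf7 was found in 8.41%, 0.831%, 2.85% and 0.876% of PD-1+TIM-3+ cells and in 36.8%, 31.2%, 39.6% and 19.6% of the others. For Lag3 the interval of the combination (55.2% to 73.0%) lay below those of the CTLA-4-titled library (74.6% to 87.6%) and the FcγRII-titled library (75.7% to 99.1%), and for Tox the interval of the combination (3.46% to 13.7%) lay below those of all 3 other libraries. With cells drawn down to 4395 UMIs instead, the Lag3 interval of the combination (63.3% to 80.3%) lay below that of the CTLA-4-titled library (82.9% to 93.9%). It then overlapped that of the FcγRII-titled library (78.9% to 99.9%). The Tox interval of the combination (6.10% to 18.4%) stayed below the others.

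**Figure D5:**
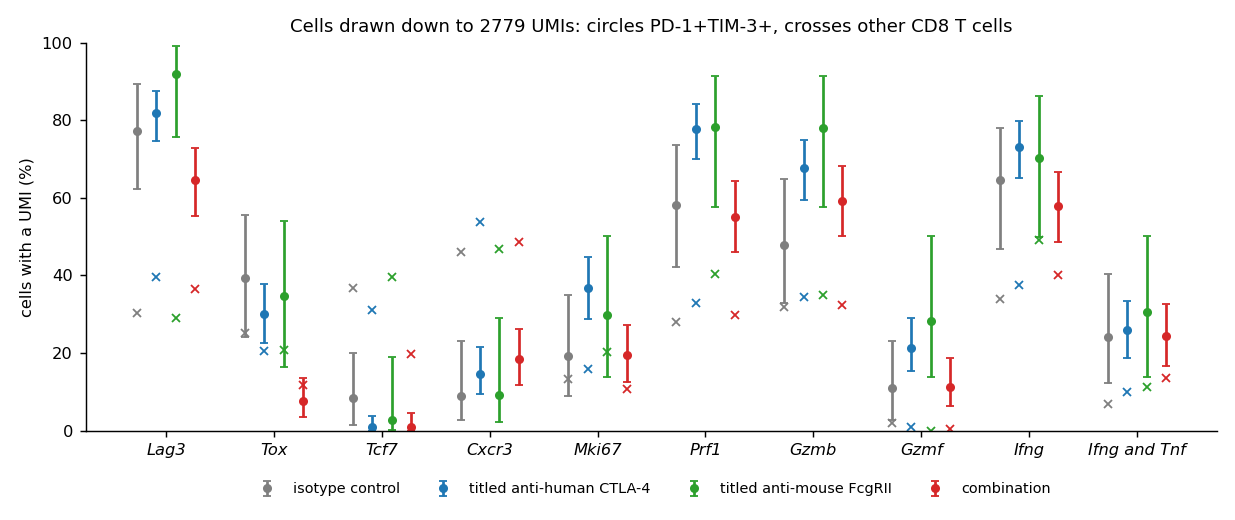
Percent of cells with a UMI (y axis) of each gene after every cell was drawn down to 2779 UMIs, for PD-1+TIM-3+ cells (circles, 95% binomial bars) and other CD8 T cells (crosses), colored by library. Lag3, Prf1 and Gzmb circles lie above the crosses of their library, Tcf7 and Cxcr3 circles lie below them, and Tox is at 7.60% in the combination.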

How the data were processed

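Live CD45+ cells were captured with the 10x Chromium Flex probe assay, which counts UMIs of designed probes, and the authors deposited 1 filtered matrix of raw counts per library, made with Cell Ranger (version 7.2.0 per the file headers, 7.0.0 per the submitters' notes, which name the mm10 build). Totals were 178178393, 129151823, 142472286 and 196362818 UMIs. Filters on genes and mitochondrial UMIs left out 96 cells. No cell was removed as a doublet, and leaving out the top 5% of Scrublet scores per library (scanpy 1.11.5) was an alternative. The members and gene lists were chosen with earlier results of these data known, and list members described beyond those with the highest levels were chosen after their values were seen.

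UMIs were summed per library and class, and 13 rule genes were kept out of the test. edgeR 4.0.16 (TMM, filterByExpr, quasi-likelihood test, library as a block, since both classes of a library come from the same pool) gave Benjamini-Hochberg adjusted p-values, and SE is the size of the log2 fold change over the square root of its F statistic. On simulated data, 82% of 100 genes changed 2-fold and 92% of 100 changed 4-fold were recovered, with 4 of 178 calls on unchanged genes, among 8379 genes. The simulation gave each gene the spread typical of its level and did not cut classes on UMIs. Recovery was thus not measured for genes whose UMIs came from few cells, such as Gzmf. Other tools were DESeq2 1.42.0, R 4.3.3, Python 3.11.15, scipy 1.17.1 and Biopython 1.88.

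Genes named in the class comparison were the 15 highest and 15 lowest fold changes with adjusted p under 0.05, the same direction in all 4 libraries and at least 20 CPM on average in the higher class. For the combination they were the 10 highest and 10 lowest ratios with at least 50 CPM in the higher library, at least 2-fold apart from each other library, at least 5 cells with a UMI and no cell with over 25% of the UMIs in the higher library (for lower genes, in each of the 3 other libraries). Intervals at 95% were exact binomial for shares, exact Poisson for levels and exact conditional for ratios of levels, with the log method for ratios of shares. UMIs of a gene cluster in cells, so Poisson intervals understate the spread between cells. For shares at equal depth, cells were drawn down to 2779 UMIs 100 times and averaged. For gene counts at equal depth, cells were drawn down once and the classes were cut again on the drawn UMIs. Cells that lost their Pdcd1 or Havcr2 UMIs in the draw thus moved to the other class. The 4 libraries are single pools, so no spread between mice could be measured. Settings with 14 macrophage markers under 1%, without cells over 50000 UMIs and with T cells as denominator were chosen after seeing the data. Gene coordinates are those of GENCODE on GRCm38.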

Additional observations from a re-analysis of the deposited data

Results flagged for a closer look

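For 2 genes among the gene lists and the genes named in the class comparison, the difference between PD-1+TIM-3+ and other CD8 T cells pointed one way in 3 libraries and the other way in the combination, with intervals that excluded 1 in each library. Tox was at 1.58 times the level of other CD8 T cells in isotype control (1.11 to 2.29), 1.71 times in the CTLA-4-titled library (1.35 to 2.18) and 2.15 times in the FcγRII-titled library (1.29 to 3.71), but 0.449 times in the combination (0.293 to 0.689). By summed UMIs, Cxcr6 was at 1.57 times (1.29 to 1.92), 1.45 times (1.32 to 1.58) and 2.24 times (1.84 to 2.74) in the same libraries and 0.868 times in the combination (0.79 to 0.953). Without cells over 50000 UMIs, its level in PD-1+TIM-3+ cells of the combination was 777 CPM in place of 680 CPM. At equal depth, 83.28% of PD-1+TIM-3+ cells of the combination had a Cxcr6 UMI against 71.65% of its other CD8 T cells. The lower Cxcr6 of the combination thus did not hold by share of cells. With 1 library a group, the difference between libraries was not tested for either gene.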

How the results depend on the processing

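As a share of all filtered cells, PD-1+TIM-3+ cells of the combination stood at 3.11 times isotype control, and as a share of T cells at 2.48 times. As a share of CD8 T cells the ratio was 1.35. Shares of all filtered cells or of T cells also carry the numbers of CD8 T cells. Genes higher and lower in the class comparison numbered 450 and 504, and 201 and 254 with DESeq2, 58 and 191 without the library as replicate block, 132 and 160 with no macrophage UMI, and 158 and 148 drawn down. When drawn down, the classes were cut again on the drawn UMIs, and 55 of 684 genes called before had the opposite sign. Without 1 library each they ranged from 161 to 448 and from 242 to 442, the lowest without the CTLA-4-titled library. Replicate numbers pair no treatment groups, and the block ties the classes of 1 library. Genes at least 2-fold higher and lower in the combination numbered 153 and 51, and 378 and 175 from 20 CPM, 374 and 790 with no macrophage UMI, 394 and 778 drawn down and 379 and 116 with the 14 markers under 1%, and 107 were lower as a mean over cells. With no macrophage UMI, isotype control and the FcγRII-titled library had 7 PD-1+TIM-3+ cells each, and drawn down isotype control had about 22. Lyz2 turned from 0.45 to -0.402 with no macrophage UMI and -0.268 drawn down. Ratios to isotype control whose interval excluded 1 and that then crossed it were Ifng (0.965 with no macrophage UMI, 0.864 with the markers under 1%, 0.917 as a mean over cells), Gzmd (0.729) and Ccl1 (0.892) with no macrophage UMI, Ccl4 (0.829 with the markers under 1%, 0.747 as a mean over cells) and Apoe (2.29 with no macrophage UMI, 2.78 with the markers under 1%). The cause was not tested. Over 94 named genes, 940 repeats of the class fold change kept direction and call, 124 lost the call, 55 gained it and 2 reversed. Recovery of differences under 2-fold was not simulated.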
